A study of Mus musculus with 7 samples.

Results

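The genes described here are those of the lipid droplet surface in mouse hepatocytes, chosen by name: the perilipins *Plin2*, *Plin3*, *Plin4* and *Plin5*, the CIDE genes *Cideb* and *Cidec*, the triglyceride lipase genes *Pnpla2* and *Pnpla3*, the lipase coactivator *Abhd5* and the lipase inhibitor *G0s2*. Of these 10 genes, 9 had a row among the 14819 rows of the count table, and all 9 passed the filter on low counts. *Pnpla3* was not analysed here. Primary hepatocytes of male mice were isolated by collagenase perfusion and kept overnight in William's E medium with serum, without any treatment. RNA was sequenced from 4 WT samples and from 3 samples of WDR6-WKO mice, in which CRISPR–Cas9 was used to delete exon 2 of *Wdr6* in the whole body. The deletion is therefore not limited to hepatocytes. The default animals in the methods are C57BL/6J mice aged 7 weeks, and no other age or strain is given for these mice in the sources used here. *Wdr6* itself was counted at 44.0 ± 4.03 CPM in WT and at 2.38 ± 0.179 CPM in the knockout. Here and throughout, CPM are counts scaled to a fixed library total by edgeR's TMM method, and ± gives the s.d. over the libraries (n = 4 for WT, n = 3 for the knockout).

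Hepatocytes store triacylglycerol (TAG) in lipid droplets, which are bounded by a single layer of phospholipid and covered with proteins. Perilipins coat this surface and limit the access of lipases, while CIDE proteins promote the transfer of lipid from smaller to larger droplets. Hydrolysis of TAG is started by ATGL, the product of *Pnpla2*, which is activated by CGI-58, the product of *Abhd5*, and inhibited by the product of *G0s2*. In the liver PLIN2 is the perilipin best known for its increase in steatosis, and PLIN5 is known for contacts between droplets and mitochondria.

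The libraries held between 17816913 and 23668940 counted reads. WDR6-WKO replicate 3 stood apart. Over 9342 genes with a mean of at least 10 CPM, its median absolute log2 difference was 0.14 to replicate 1 and 0.15 to replicate 2, whereas the other pairs of the same genotype lay between 0.06 and 0.08. Without this library 28.6% of the genes tested were called at an adjusted p under 0.05, against 12.8% with it. Fold changes of the 9 genes, and counts of calls among other lipid droplet genes and regulators, are therefore also given without it. *Fabp1*, listed here with the other lipid droplet genes, had 12 to 17 reads in each library and 0.602 to 0.857 CPM in WT. The aligner used does not split a read across an intron, and the part of this in the count of *Fabp1* was not tested. Among hepatocyte markers *Alb* was abundant, at 7366 ± 730.4 CPM in WT. In the same WT libraries *Cyp2e1* stood at only 16.6 to 19.6 CPM and *Tat* at 0.954 to 2.13 CPM. The calls of cell type markers given here were made with all libraries, where 6.18% of all genes were called lower and 6.65% higher. Of the 11 hepatocyte markers tested, 6 were called lower in the knockout and 0 higher. Their summed levels were 15702 to 18686 CPM in WT and 14151 to 16194 CPM in knockout libraries. Of the 12 Kupffer cell markers, 3 were higher and 0 lower, and their summed level was 860 to 939 CPM in WT and 993 to 1191 CPM in knockout libraries. The adipocyte markers *Adipoq*, *Lep*, *Retn*, *Cfd* and *Plin1* had no values here, and the others, *Fabp4* (called higher), *Lpl* and *Cd36*, summed to 399 to 441 CPM in WT and 450 to 516 CPM in knockout libraries. Of 11 stellate cell markers 2 were higher and 1 lower, and of 10 endothelial markers 0 were higher and 1 lower, and the summed levels of both lists overlapped between the genotypes. Of 5 cholangiocyte markers 2 were higher and 0 lower, and their summed levels, most of which came from *Spp1*, were 3068 to 3360 CPM in WT and 3714 to 4306 CPM in knockout libraries. The part of such cells in the results was not tested, and in bulk RNA fewer cells of a type and less RNA per cell cannot be told apart.

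Of the 9 lipid droplet genes tested, *Plin4* alone was called between the genotypes, at an edgeR p below 0.05 after adjustment over the 14779 genes tested, and it was lower in the knockout. Among all genes 12.8% were called, 6.65% higher and 6.18% lower. Before adjustment *Plin5*, *Cideb* and *G0s2* were also under 0.05, which makes 4 of 9, where 28.1% of all genes were. By the DEG rule of the study's methods, a log2 fold change beyond 0.35 in either direction with an unadjusted p under 0.05, applied to the edgeR values, 3 of the 9 were DEGs, namely *Plin4* and *Plin5* on the lower side and *G0s2* on the higher, where 10.4% of all genes were (6.42% higher, 3.94% lower). Without WDR6-WKO replicate 3 the call rule on adjusted p took 3 of the 9, *Plin3* and *G0s2* as higher and *Plin4* as lower, where 14.5% of all genes were higher and 14.1% lower. The median log2 fold change of the 9 genes was 0.02, and that of all genes was 0.01. For the most abundant coat gene, *Plin2*, the means were 1587 ± 16.5 CPM in WT and 1632 ± 74.2 CPM in the knockout, a difference larger than the s.d. of the WT libraries and smaller than that of the knockout libraries.

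**Figure D1:**
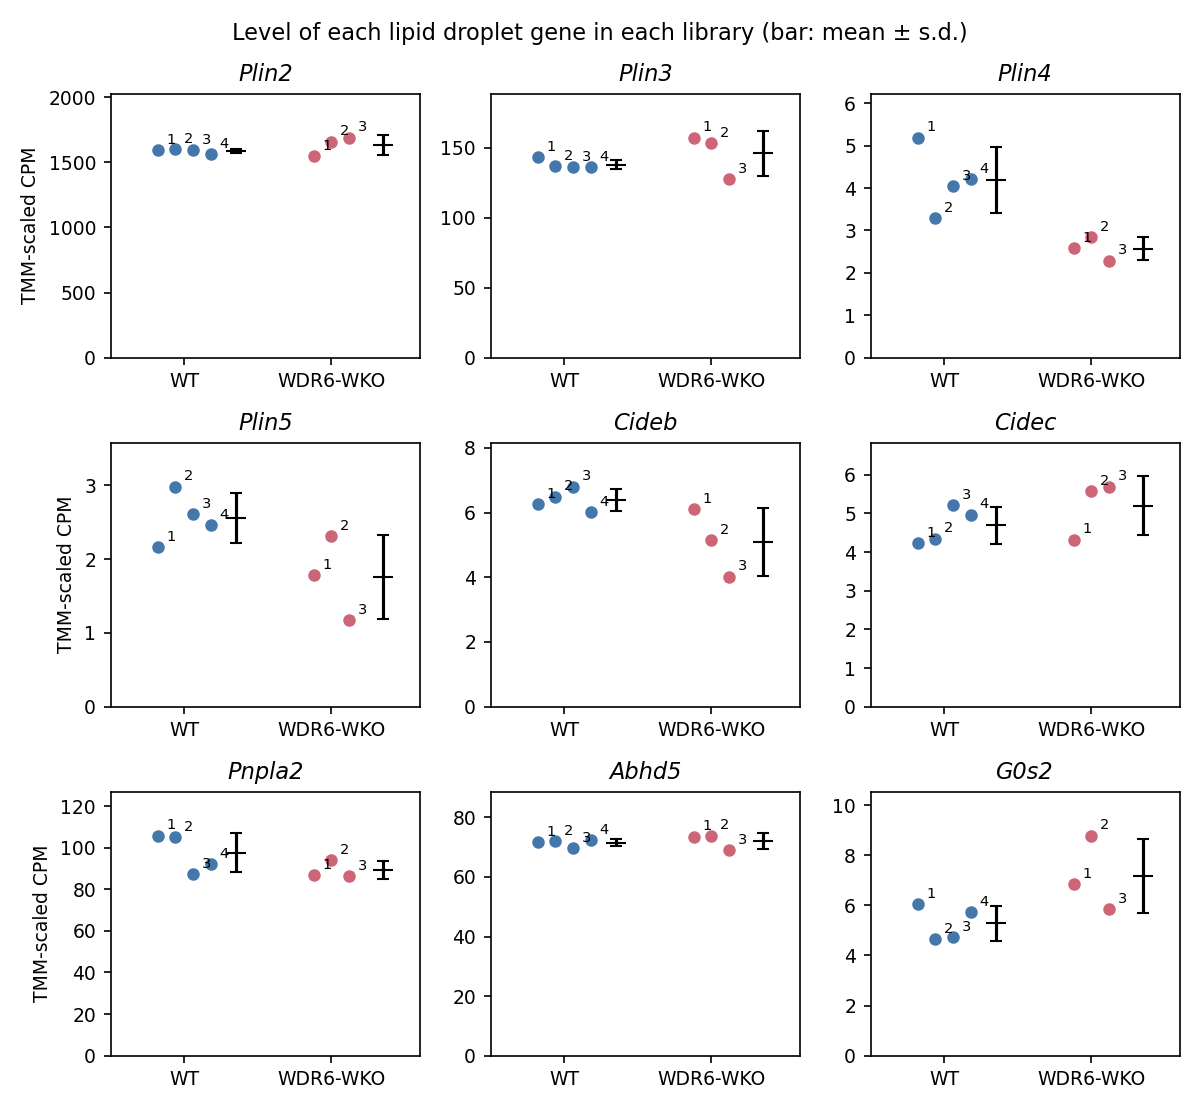
TMM-scaled CPM of the 9 lipid droplet genes in each library (points, numbered by replicate) of WT and WDR6-WKO hepatocytes, with mean ± s.d. beside them and each axis starting at 0. Only for *Plin4* do the WDR6-WKO libraries, at 2.29 to 2.84 CPM, lie wholly outside the WT range of 3.30 to 5.19 CPM.

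Levels of different genes were compared per kilobase of annotated exon. On this scale *Plin2* came first in WT hepatocytes, with 452 ± 4.71 CPM per kilobase (s.d., n = 4), and *Plin3* followed at 36.5 ± 0.893. Next were *Pnpla2* at 32.3 ± 3.09, *Abhd5* at 11.7 to 12.1 and *G0s2* at 6.08 ± 0.804 CPM per kilobase. The least abundant were *Cideb* at 4.30 ± 0.225, *Cidec* at 2.53 ± 0.256, *Plin5* at 1.22 ± 0.163 and *Plin4* at 0.725 ± 0.135 CPM per kilobase. The WT ranges of neighbours in this order did not overlap. The order was the same in the knockout, in which the ranges of *Cideb*, from 2.70 to 4.11, and *Cidec*, from 2.33 to 3.07 CPM per kilobase, overlapped. *Plin2* thus made up between 91.9% and 92.3% of the summed perilipin level per kilobase in the WT libraries and between 91.1% and 93.3% in the WDR6-WKO libraries.
The reads were aligned to the genome with Bowtie2, which does not split a read across an intron, and how reads over exon junctions were counted is not given in the sources used here. Among the 9 tested genes the longest exon of the longest transcript ranged from 522 bases in *Cideb* to 2598 bases in *Plin3*, and the part of this in the levels was not tested. With the longest transcript in place of all exons the order of the 9 WT means was the same. The WT means of *Plin3* and *Pnpla2* then lay close together, at 37.9 and 37.2 CPM per kilobase, and ranges were not compared on this length. The WT level of *Plin2* was 841 in place of 452 CPM per kilobase and that of *Abhd5* 22.6 CPM per kilobase. The shares and ratios of levels given here rest on the length of all exons.

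**Figure D2:**
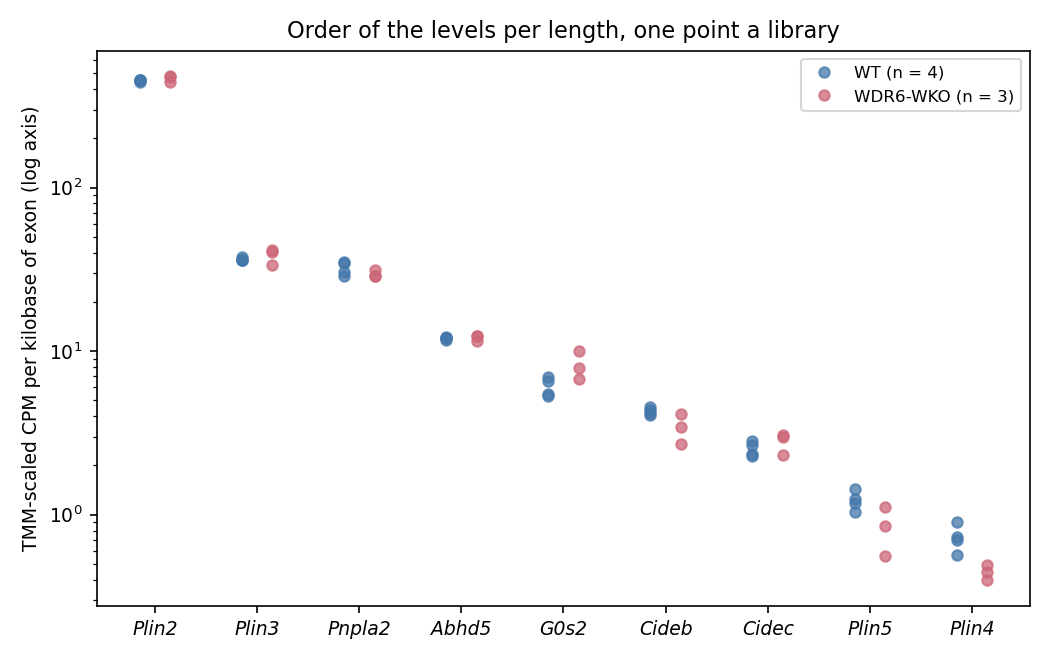
TMM-scaled CPM per kilobase of exon (log axis) of the 9 genes in the order of the WT mean, with 1 point for each WT (n = 4) and WDR6-WKO (n = 3) library. *Plin2* lies at 441 to 481 in every library, and *Plin4* lies below 1.

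*Plin2* encodes the main perilipin of hepatocytes, also called adipophilin. In WT replicates 1 to 4 it stood at 1592, 1600, 1595 and 1563 CPM. In the knockout libraries, in the same order of replicates, it stood at 1548, 1658 and 1690 CPM. The WDR6-WKO libraries lay on both sides of the WT range. *Plin2* had a log2 fold change of 0.04 (95% interval -0.05 to 0.14, edgeR adjusted p = 0.607), so that a change by more than 1.10-fold upward or to less than 0.963 of the WT level was outside the interval. Without WDR6-WKO replicate 3 the value was 0.01 (edgeR adjusted p = 0.863), and without replicate 1 it was 0.07 (edgeR adjusted p = 0.386). With 29990 to 37263 counts in a library, counting error was 0.570% of the WT level. The spread of *Plin2* between libraries was 1.04% of the mean in WT and 4.55% in WDR6-WKO hepatocytes. The gene lies on chromosome 4 of GRCm38 from 86648386 to 86670060, on the minus strand, clear of other annotated exons.

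*Plin3* encodes TIP47, a perilipin that moves from the cytosol to newly formed droplets. Its levels were 143, 137, 136 and 136 CPM in WT and 157, 153 and 128 CPM in WDR6-WKO hepatocytes. WDR6-WKO replicates 1 and 2 stood above every WT library and replicate 3 below every one. With all libraries the log2 fold change was 0.08 (95% interval -0.05 to 0.22, edgeR adjusted p = 0.437). Without WDR6-WKO replicate 3 it was 0.17 (s.e. 0.04, edgeR adjusted p = 0.00416). Without replicate 1 it was 0.02 and without replicate 2 it was 0.05 (edgeR adjusted p = 0.891 and 0.777), so the value of *Plin3* depended on each knockout library.

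*Plin4* encodes S3-12, a perilipin abundant in adipocytes that coats small droplets. In WT replicates 1 to 4, 103, 63, 76 and 84 reads were counted, or 5.19, 3.30, 4.04 and 4.22 CPM. The knockout libraries held 62, 60 and 41 reads, or 2.58, 2.84 and 2.29 CPM. Each WDR6-WKO library was below each WT library, as was the case, in either direction, for 23.5% of all genes tested. *Plin4* fell to 61.3% of the WT mean, with a log2 fold change of -0.70 (s.e. 0.18, 95% interval -1.09 to -0.31, edgeR adjusted p = 0.0204). The exact permutation p of its log2 levels, two-sided, was 0.0571, where 0.0286 is the smallest that 4 against 3 libraries allow.
The call of *Plin4* depended on single libraries. The edgeR adjusted p was 0.0659 without WT replicate 1, 0.0518 without WT replicate 4 and 0.0690 without WDR6-WKO replicate 1, while it was 0.0174 without WDR6-WKO replicate 3. Its log2 fold change stayed between -0.80 and -0.58 over all alternatives run, with adjusted p of 0.0139 to 0.0690 (edgeR, DESeq2 and limma), and was nearest to 0 without WT replicate 1, the highest WT library.

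*Plin5* encodes the perilipin of oxidative tissues. It is the nearest perilipin to *Plin4*. Both lie on the minus strand of chromosome 17 of GRCm38, *Plin4* from 56100591 to 56109803 and *Plin5* from 56111601 to 56117596, with 1797 bases between them. *Plin3* follows on the same strand from 56277476 to 56292873, 159879 bases beyond *Plin5*. *Plin4* shares 17 exon bases with *Hdgfl2* on the opposite strand, which stood at 41.4 CPM in WT and 44.1 CPM in the knockout (edgeR adjusted p = 0.460). The levels of *Plin5* were 2.17, 2.98, 2.61 and 2.46 CPM in WT and 1.79, 2.32 and 1.17 CPM in the knockout. WDR6-WKO replicate 2 lay within the WT range, and replicates 1 and 3 were below it. *Plin5* had a log2 fold change of -0.52 (95% interval -1.01 to -0.03) and was not called (edgeR adjusted p = 0.155). Without WDR6-WKO replicate 3, in which 21 reads were counted, it was -0.32 (edgeR adjusted p = 0.323), and without replicate 2 it was -0.76 (edgeR adjusted p = 0.0993). The spread of *Plin5* in WDR6-WKO hepatocytes was 32.5% of the mean, against a counting error of 16.3%.

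Promoter sequences are shown for the neighbours *Plin4* and *Plin5*, whose fold changes were the most negative of the 9, for *G0s2*, whose fold change was the most positive, and for *Plin2*, the most abundant coat gene. They came from RefSeq (GRCm38.p6), in which all 10 genes had an entry, and cover 250 bases before and 6 bases after the annotated start. All 4 genes lie on the minus strand, and the sequences are given in the direction of transcription. Capitals mark the nuclear receptor half-site AGGTCA and the E-box CACGTG, both searched on either strand, and TATAA on the gene's strand within 50 bases before the start.
*Plin4*, chr17:56109777-56110032: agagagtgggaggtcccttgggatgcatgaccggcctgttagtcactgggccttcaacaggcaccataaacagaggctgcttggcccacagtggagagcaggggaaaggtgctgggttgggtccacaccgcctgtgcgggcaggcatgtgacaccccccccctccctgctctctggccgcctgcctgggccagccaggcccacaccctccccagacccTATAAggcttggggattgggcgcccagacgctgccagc
*Plin5*, chr17:56117543-56117798: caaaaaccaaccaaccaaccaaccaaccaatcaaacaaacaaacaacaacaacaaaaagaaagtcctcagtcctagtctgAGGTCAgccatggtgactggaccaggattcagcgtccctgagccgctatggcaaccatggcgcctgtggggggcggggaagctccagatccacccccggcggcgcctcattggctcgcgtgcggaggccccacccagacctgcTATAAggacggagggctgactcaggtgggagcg
*G0s2*, chr1:193273183-193273438: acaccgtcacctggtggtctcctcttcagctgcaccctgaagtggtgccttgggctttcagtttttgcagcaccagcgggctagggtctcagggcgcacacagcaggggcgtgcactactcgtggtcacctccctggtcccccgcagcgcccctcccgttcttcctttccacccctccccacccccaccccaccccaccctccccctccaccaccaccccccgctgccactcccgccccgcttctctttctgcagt
*Plin2*, chr4:86670054-86670309: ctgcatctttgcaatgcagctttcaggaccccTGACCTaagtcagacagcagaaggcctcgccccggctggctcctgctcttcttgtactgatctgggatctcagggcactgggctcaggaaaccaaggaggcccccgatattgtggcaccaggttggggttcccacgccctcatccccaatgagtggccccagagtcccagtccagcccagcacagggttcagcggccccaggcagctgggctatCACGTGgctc
TATAA was found 32 bases before the start of *Plin4* and 27 bases before the start of *Plin5* shown, one of its annotated starts, and in no other of the 10 genes. Of 32851 RefSeq promoters, 4.93% hold it in that window. This motif was added after the sequences had been seen. *Plin2* holds AGGTCA on the opposite strand 218 bases before the start and CACGTG, the E-box bound by USF and ChREBP, 4 bases before it and across it. Over windows from 250 bases before to 50 bases after each start, AGGTCA was found in 3 of the 10 genes (*Plin2*, *Plin5* and *Abhd5*) and in 16.3% of all promoters, and CACGTG in *Plin2* alone and in 7.15% of all promoters. The direct repeat of AGGTCA with any 1 base between the copies, the consensus of PPAR with RXR, was in 0 of the 10 and in 0.0396% of all promoters. These matches describe letters in short windows and not binding.

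*Cideb* encodes the CIDE protein best known in hepatocytes, where it takes part in the lipidation of very-low-density lipoprotein. Its levels were 6.25, 6.49, 6.81 and 6.02 CPM in WT and 6.11, 5.15 and 4.02 CPM in WDR6-WKO hepatocytes. WDR6-WKO replicate 1 was within the WT range, and replicates 2 and 3 were below it. *Cideb* had a log2 fold change of -0.32 (95% interval -0.63 to -0.0024) and was not called (edgeR adjusted p = 0.174). Without WDR6-WKO replicate 3 the value was -0.18 (edgeR adjusted p = 0.395), and without replicate 1 it was -0.48 (edgeR adjusted p = 0.0896). Of the exon bases of *Cideb*, on chromosome 14 from 55754050 to 55758458, 76.3% overlap annotated exons of *Nop9* on the opposite strand. *Nop9*, a nucleolar protein gene, stood at 47.2 CPM in WT and 51.6 CPM in the knockout. Because the strand setting of the counts is not given, reads of these overlapping genes cannot be told apart and the level of *Cideb* is uncertain.

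*Cidec* encodes FSP27, which drives the growth of large droplets and is known for its increase in fatty liver. It was counted at 4.24, 4.35, 5.21 and 4.97 CPM in WT and at 4.32, 5.58 and 5.70 CPM in WDR6-WKO hepatocytes. The ranges overlapped. The fitted log2 fold change of *Cidec* was 0.14 (95% interval -0.18 to 0.46, edgeR adjusted p = 0.587), and with each library left out in turn it lay between 0.07 (without WDR6-WKO replicate 3, edgeR adjusted p = 0.807) and 0.26 (without WDR6-WKO replicate 1, edgeR adjusted p = 0.357). With 83 to 118 counts in a library, changes of up to 1.38-fold upward were within this interval. The ratio of *Cidec* to *Cideb* per kilobase lay between 0.537 and 0.661 in the WT libraries and was 0.567, 0.868 and 1.14 in WDR6-WKO replicates 1 to 3. The position of *Cidec* is chromosome 6, 113424634 to 113435760, minus strand. The ratio was given no test, and the uncertainty of *Cideb* applies to it.

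*Pnpla2*, the gene of ATGL, was counted at 106, 105, 87.3 and 92.2 CPM in WT and at 87.0, 94.1 and 86.4 CPM in WDR6-WKO hepatocytes. WT replicates 1 and 2 stood above all WDR6-WKO libraries, and WT replicates 3 and 4 among them. *Pnpla2* had a log2 fold change of -0.13 (95% interval -0.28 to 0.02) and was not called (edgeR adjusted p = 0.239), and leaving out single libraries moved the value to between -0.18 and -0.09. It lies on the plus strand of chromosome 7 of GRCm38 from 141455198 to 141460743, clear of the exons of other annotated genes.
*Abhd5*, the gene of the ATGL activator CGI-58, on chromosome 9 from 122351608 to 122381524, was among the steadiest of the 9 genes. It was counted at 71.7, 72.1, 69.7 and 72.2 CPM in WT and at 73.5, 73.9 and 69.1 CPM in the knockout. Its log2 fold change was 0.02 (95% interval -0.10 to 0.13, edgeR adjusted p = 0.891). Without WDR6-WKO replicate 1 or 2 the value was just below 0, at -0.0020 and -0.0021, and without replicate 3 it was 0.04. Of its 5956 exon bases, 950 overlap an antisense gene that was not tested.
*G0s2*, the gene of the ATGL inhibitor, on chromosome 1 from 193272161 to 193273217, had 120, 89, 89 and 114 reads in WT, or 6.05, 4.66, 4.73 and 5.72 CPM. The knockout libraries held 165, 186 and 105 reads, or 6.86, 8.79 and 5.86 CPM. WDR6-WKO replicates 1 and 2 were above every WT library, and replicate 3 was within the WT range. *G0s2* had a log2 fold change of 0.44 (95% interval 0.11 to 0.77) and was not called (edgeR adjusted p = 0.0760). Without WDR6-WKO replicate 3 the value was 0.56 (s.e. 0.15, edgeR adjusted p = 0.00652), and without replicate 2, the highest library, it was 0.27 (edgeR adjusted p = 0.382).

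**Figure D3:**
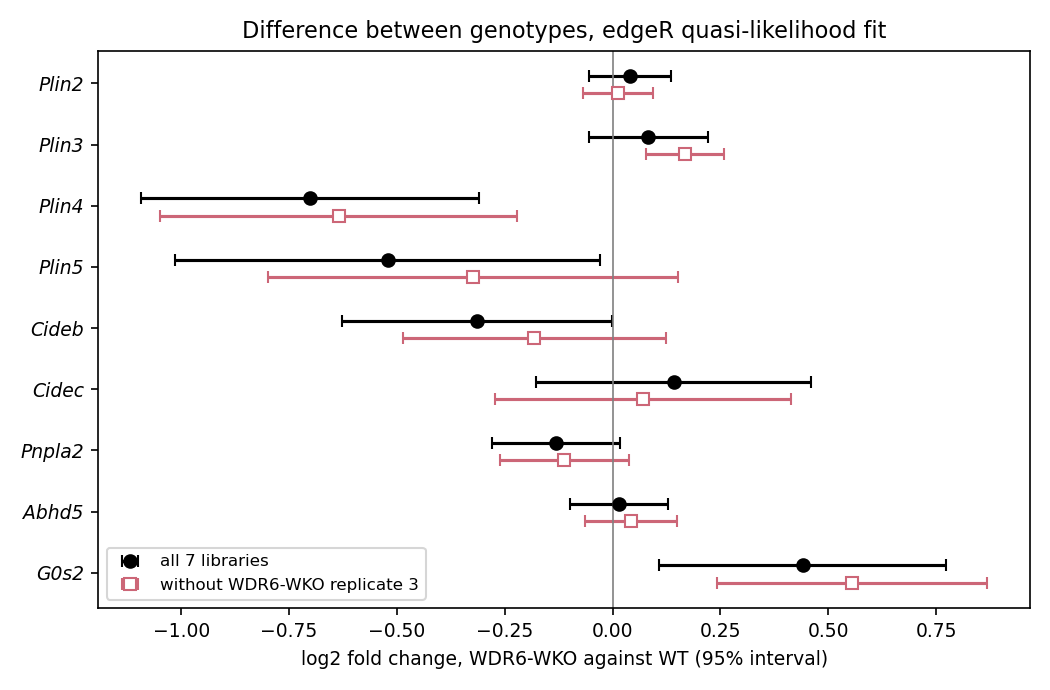
Log2 fold change of WDR6-WKO against WT with its 95% interval for each gene, with all 7 libraries (black circles) and without WDR6-WKO replicate 3 (open squares), from edgeR's quasi-likelihood fit. *Plin4* lies at -0.70 and -0.64, while *Plin3* moves from 0.08 to 0.17 and *G0s2* from 0.44 to 0.56.

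Within a library the ratio of the inhibitor to the lipase, *G0s2* to *Pnpla2* per kilobase, was 0.198, 0.154, 0.188 and 0.215 in the WT libraries and 0.273, 0.324 and 0.235 in the knockout libraries. The ranges of this ratio did not overlap, although those of both genes did. Among all single genes tested 23.5% had ranges that did not overlap, and the share among ratios was not determined. The ratio of the activator to the lipase, *Abhd5* to *Pnpla2*, was 0.343 to 0.405 in WT and 0.398 to 0.429 in knockout libraries. These ranges overlapped. No test was made on the ratios, since the genes were chosen with results of these data known.

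**Figure D4:**
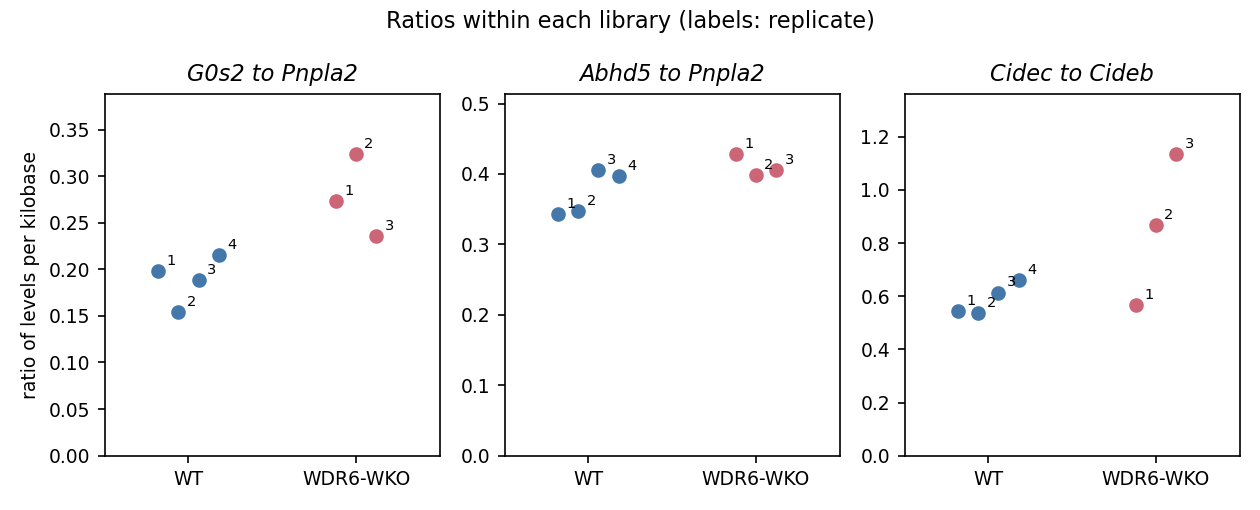
Ratios of levels per kilobase within each library (points, numbered by replicate) for *G0s2* to *Pnpla2*, *Abhd5* to *Pnpla2* and *Cidec* to *Cideb*, with axes starting at 0. The ratio of *G0s2* to *Pnpla2* is at most 0.215 in WT and at least 0.235 in WDR6-WKO libraries.

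The members varied more among the WDR6-WKO than among the WT libraries in 7 of 9 cases, *Plin4* and *Pnpla2* being the exceptions. The share of all genes with a wider spread in the knockout was not determined. WDR6-WKO replicate 3 stood apart over all genes, and whether this count is particular to the members was not tested. The s.d. was 2.45% of the mean in WT and 11.1% in the knockout for *Plin3*, and 5.24% and 20.5% for *Cideb*. In both genes WDR6-WKO replicate 3 was the lowest library. Replicates 1 and 2 stood at 157 and 153 CPM for *Plin3*, and at 6.11 and 5.15 CPM for *Cideb*. The spread without replicate 3 was not computed. That replicate was also the lowest of the 7 for *Plin4*, *Plin5*, *Pnpla2* and *Abhd5*, and the highest for *Plin2* and *Cidec*.

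Other genes of droplet formation and lipolysis were read from the same fit. Of 55 such genes listed, 49 were tested, of which 7 were called lower and 1 higher in the knockout, where 12.8% of all genes were called (6.18% lower, 6.65% higher), with a median log2 fold change of -0.04 (0.01 over all genes). *Dgat2*, the enzyme of the last step of TAG synthesis in hepatocytes, was the higher one. It rose from 110 ± 6.03 to 128 ± 3.14 CPM, by 0.23 on the log2 scale (edgeR adjusted p = 0.0114), and the ranges did not overlap. Without WT replicate 3 this call was lost, and 0 genes of the list were higher. *Dgat1*, the other enzyme of that step, had a log2 fold change of -0.15 (edgeR adjusted p = 0.260). Without WDR6-WKO replicate 3 that of *Dgat1* was -0.09 (edgeR adjusted p = 0.486).
*Mgll*, the lipase that completes lipolysis by cleaving monoacylglycerol, fell from 12.4 ± 0.931 to 8.67 ± 1.54 CPM, by 0.50 on the log2 scale (edgeR adjusted p = 0.0133). *Lipe*, hormone-sensitive lipase, which acts between ATGL and that enzyme, stood at 6.19 ± 0.507 and 5.21 ± 0.908 CPM and was not called (edgeR adjusted p = 0.284). The droplet-associated methyltransferase-like genes *Mettl7b* and *Mettl7a1* fell by 0.60 and 0.28, and the droplet dehydrogenase *Hsd17b11* by 0.27, on the log2 scale. *Tm6sf2*, which acts in lipoprotein secretion, fell by 0.34 and the hepatic carboxylesterase *Ces3a* by 0.17. *Spast*, the gene of spastin, a microtubule-severing protein with a form on droplets, fell by 0.22 (edgeR adjusted p = 0.0467). *Hsd17b13*, a hepatocyte droplet protein related to *Hsd17b11*, spread from 9.23 to 15.8 CPM in WT and was not called (edgeR adjusted p = 0.512). *Hilpda*, another inhibitor of ATGL, was counted at 124 to 128 CPM in WT and at 136, 156 and 126 CPM in the knockout. Like *G0s2*, it was not called with all libraries (log2 fold change 0.14, edgeR adjusted p = 0.148) and was called without WDR6-WKO replicate 3 (log2 fold change 0.21, edgeR adjusted p = 0.00167). Without that library, 13 genes of the list were lower and 2 were higher, where 14.1% of all genes were lower and 14.5% higher.

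**Figure D5:**
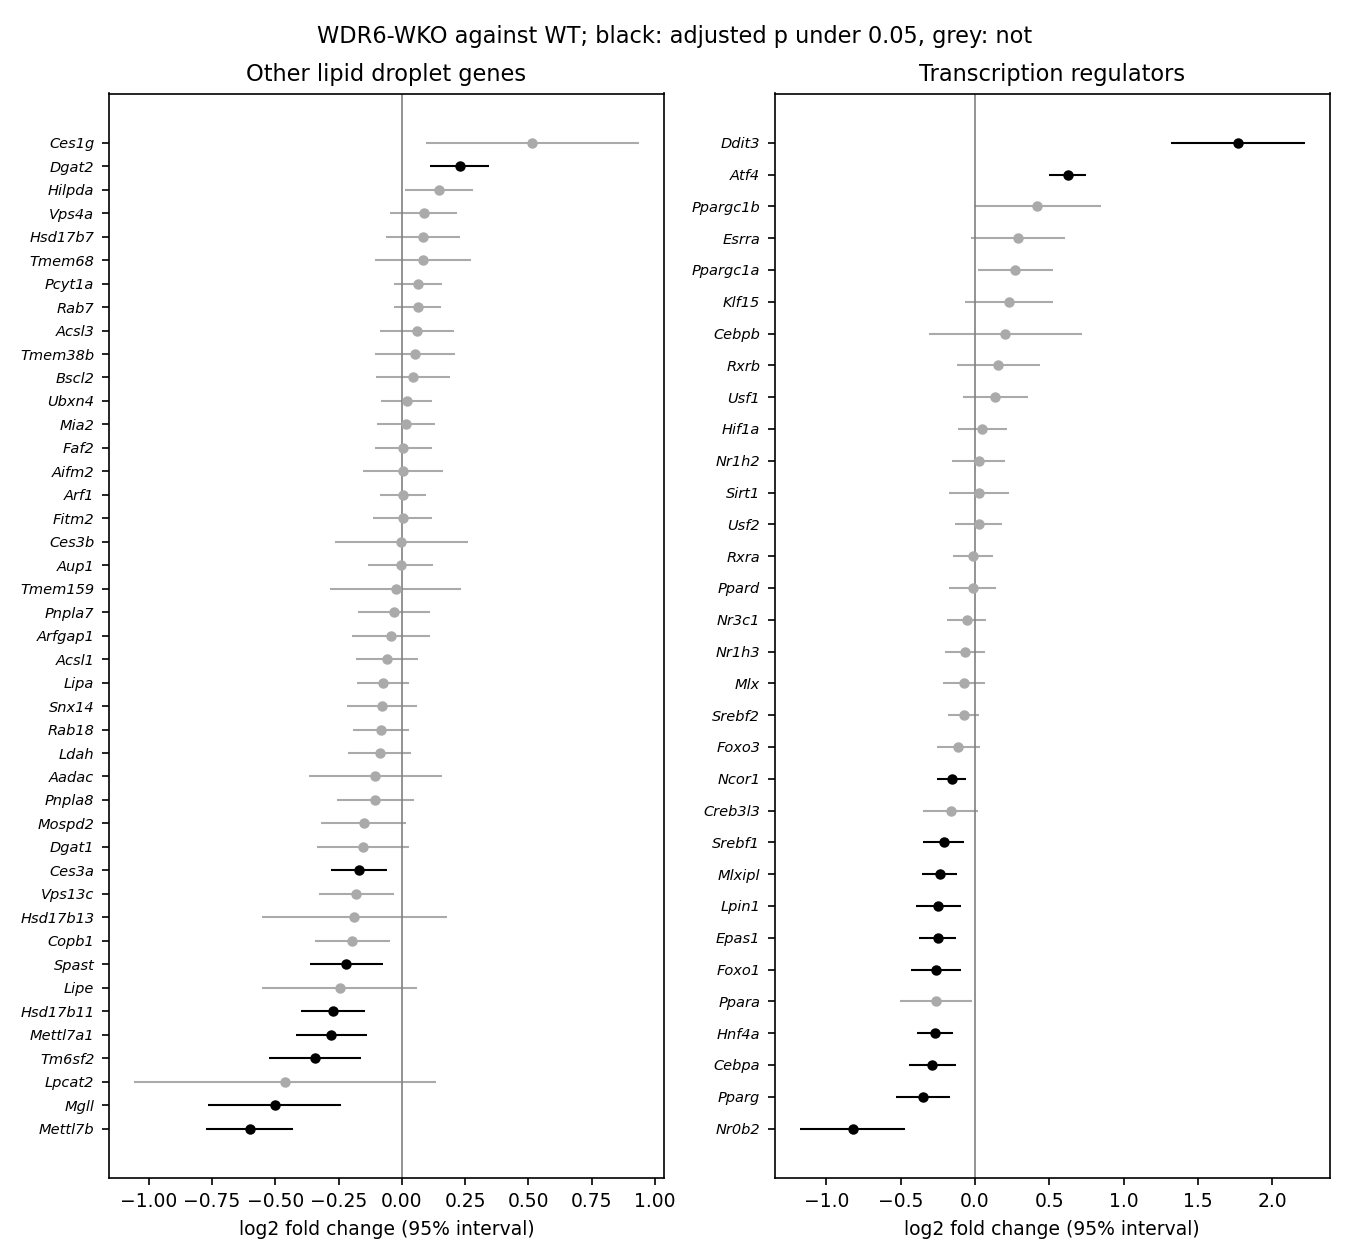
Log2 fold changes of WDR6-WKO against WT with 95% intervals for 43 other lipid droplet genes (left, those with a mean of at least 1 CPM in either genotype) and 32 transcription regulators (right), sorted by value. Black points passed an adjusted p of 0.05, 1 higher and 7 lower on the left and 2 higher and 10 lower on the right.

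All 32 listed transcription factors and coregulators that act on lipid droplet genes were tested. Of these, 10 were called lower and 2 higher, where 6.18% of all genes were lower and 6.65% higher, and the median log2 fold change was -0.06 (0.01 over all genes). *Pparg*, the adipogenic PPAR that induces *Cidec* and *Plin4*, fell from a WT range of 19.7 to 22.1 CPM to a knockout range of 15.1 to 17.1 CPM, by 0.35 on the log2 scale (edgeR adjusted p = 0.0126). *Ppara*, the PPAR of fasting, stood at 12.4 ± 1.58 and 10.4 ± 0.697 CPM, with separate ranges but an edgeR adjusted p of 0.145. *Mlxipl*, the gene of ChREBP, fell by 0.24 and *Srebf1* by 0.21 on the log2 scale. *Foxo1*, which induces *Pnpla2*, fell by 0.26, although its ranges overlapped. *Creb3l3*, a hepatic inducer of *Cidec*, had a log2 fold change of -0.16 and was not called (edgeR adjusted p = 0.235). Without WDR6-WKO replicate 3 that of *Creb3l3* was -0.09 (edgeR adjusted p = 0.445). *Nr0b2*, a corepressor, fell by 0.82, *Cebpa* by 0.29, *Hnf4a* by 0.27 and *Epas1* by 0.25 on the log2 scale. The higher genes were *Atf4* and *Ddit3*, factors of the integrated stress response, by 0.62 and 1.77. With library sizes alone in place of TMM, 6 regulators were lower and 2 higher, where 696 of all 14779 genes were lower and 1212 higher. The study's DEG rule took 1 as lower and 2 as higher on edgeR values, where it took 3.94% and 6.42% of all genes. On DESeq2 values it took 2 as lower and 2 as higher, where it took 534 and 839 of 14819 genes. *Pparg* lay at the threshold of 0.35 in that rule. When WDR6-WKO replicate 3 was left out, 10 were lower and 5 higher, where 14.1% of all genes were lower and 14.5% higher, and *Esrra*, *Rxrb* and *Usf1* were called in addition on the higher side, at 0.45, 0.32 and 0.25 on the log2 scale. Without WDR6-WKO replicate 2, 3 were lower and 2 higher, where 462 genes were lower and 570 higher among 14792.

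*Plin4* had the smallest p of the 9 members tested. The genes whose pattern over the 7 libraries was nearest to that of *Plin4* were *Amt*, *Slc25a21* and *Foxc2*. Nearness was measured as the Euclidean distance between log2 levels relative to the WT mean, which was 0.334, 0.336 and 0.338 among 14773 genes. *Amt*, a subunit gene of the glycine cleavage system, stood at 10.8 ± 1.88 CPM in WT and 5.95 ± 0.802 CPM in the knockout (log2 fold change -0.85, edgeR adjusted p = 0.00132). *Slc25a21* and *Foxc2* had 7 to 27 reads in a library and were not called (edgeR adjusted p = 0.180 and 0.303).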

How the data were processed

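RNA of primary hepatocytes from WT (n = 4) and WDR6-WKO (n = 3) mice was sequenced in separate libraries. The authors aligned the reads to mm10 with Bowtie2 2.2.3 (the submitters' processing notes) and deposited counts of reads per gene symbol, without normalization. The counting tool, annotation and strand setting are not given in the sources used here. Column names matched each sample's label. From the counts, edgeR 4.0.16 in R 4.3.3 (TMM scaling, filterByExpr, robust quasi-likelihood test, Benjamini-Hochberg adjustment over 14779 genes) compared the genotypes. Standard errors came from the log2 fold change and F, and intervals from the t distribution. The fit was tested on simulated data with known changes. The labels call the samples independent experiments without tying each to a mouse, so p-values measure the spread between these samples.

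The genes, lists, rules and alternatives (DESeq2 1.42.0, limma-voom with limma 3.58.1, other scalings and filters, a replicate block, each library left out, DEG thresholds, transcript length) were chosen with earlier results of these data known. Genes named were the 10 members, *Wdr6*, up to 6 called genes per direction of each list with 6 fixed ones, genes overlapping a member's exons and the 3 nearest to the member with the smallest p. *Spast*, *Esrra*, *Rxrb*, *Usf1* and the cell type markers named were chosen after their values were seen. Exons came from GENCODE M21 (GRCm38), the build of the files.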

Additional observations from a re-analysis of the deposited data

Results flagged for a closer look

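*Plin3* in WT replicate 1, at 143 CPM, stood apart from the other WT libraries, which lay between 136 and 137 CPM. The gap to the nearest of them was 0.901 of the whole WT range, above Dixon's critical value at 95% for 4 samples. About 1 in 20 such groups is singled out by chance, and 9 genes were examined. Without this library the log2 fold change of *Plin3* was 0.10 and not called (edgeR adjusted p = 0.411).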

How the results depend on the processing

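The count of lipid droplet genes called was 1 under every scaling, filter and tool run with all libraries. It was 3 and 2 under the study's DEG rule on edgeR and on DESeq2, where the rule took 1532 and 1373 of all genes, and 0 to 3 with each library left out. It was 0 without WT replicate 1, WT replicate 4 or WDR6-WKO replicate 1, where 1401, 1182 and 1180 of all genes were called, and 3 without WDR6-WKO replicate 3, where 4233 were. Among other lipid droplet genes (8 called) the DEG rule gave 4 with either tool and leaving out a library 4 to 15. Among regulators (12 called) it gave 3 on edgeR and 4 on DESeq2, and leaving out a library 5 to 15. Over all genes (1897 called) leaving out a library gave 1032 (without WDR6-WKO replicate 2) to 4233 (without WDR6-WKO replicate 3). With library sizes alone 1212 genes were higher and 696 lower, against 983 and 914. The log2 fold change of *Abhd5* lay between -0.0021 and 0.043 with a library left out, below 0 without WDR6-WKO replicate 1 or 2. Deviations of same-numbered samples from their group means correlated weakly (0.0312, 0.0060 and 0.0260, 2 of 3 knockout libraries correlating best with their own number). These values, in which genes with few reads weigh as much as others, cannot decide whether the numbers pair the samples. With a replicate block 1762 genes and 1 lipid droplet gene were called. The low counts of *Plin4*, *Plin5*, *Cideb*, *Cidec* and *G0s2*, 21 to 186 reads in a library, limit the changes that could be detected in them. The causes of these shifts were not tested.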
